A study of Homo sapiens with 12 samples.

Results

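The expression of 44 cell cycle and DNA replication genes was described in the colorectal cancer line HCT116 and in Hke3 and Hkh-2, isogenic lines derived from it. The 44 genes are a list of 28 genes that act in G1 and at the start of S phase and 16 genes that act in G2 and mitosis, among 19775 genes that the arrays name by a single symbol. Every probe set whose annotated symbol was one of the 44 was taken, which gave 109 of the 54675 probe sets. Of the 44 genes, 43 were tested, and they are 27 of the G1/S genes and all 16 G2/M genes. CCND2 was the gene left out.

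RNA was measured on 12 arrays in 4 groups of 3. Hke3 and Hkh-2 are each 1 clone of HCT116 in which homologous recombination targeted the line's oncogenic RAS allele, and both were grown in basal condition without doxycycline. The paper's methods call the mutant allele deleted, whereas the labels describe both lines as wild type for the gene. HCT116 control doxycycline cells were given 25 ng/ml doxycycline and HCT116 control vehicle cells received vehicle, and both were collected on day 3. HCT116 keeps the oncogenic allele in both of these groups. The sources do not settle whether the control arrays are from parental cells or from cells with a control vector, so the reference for each line is the vehicle group as labelled. Line and culture condition cannot be told apart in that comparison. It is not stated whether replicate arrays stand for separate cultures, so each p-value reflects array-to-array spread that may be technical.

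Progress through G1 is driven by D-type cyclins with CDK4 and CDK6 and by E-type cyclins with CDK2, which phosphorylate the retinoblastoma protein and free E2F factors to switch on genes for DNA replication. The INK4 inhibitors block CDK4 and CDK6, and the CIP/KIP inhibitor encoded by CDKN1B binds CDK2 complexes. In G2 another set of genes, which includes CDK1, the B-type cyclins and the mitotic kinases, is switched on for entry into and passage through mitosis. RAS signalling in colorectal cells is known to act on G1 entry through D-type cyclins.

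The values are log2 expression values that the authors normalized with RMA, and differences between groups are given on this log2 scale. Where a gene has several probe sets, the one with the highest mean stands for it. Genes were tested where at least 1 group had a mean of 6 or more, a level taken here as the edge of background. Differences were tested with limma over 12852 genes, and a gene was called at a Benjamini-Hochberg adjusted p under 0.05. With 3 arrays a side, 0.1 is the smallest two-sided p that an exact permutation test allows. Array medians lay between 5.80 and 5.86. Hke3 replicate 3 and HCT116 control vehicle replicate 2 stood apart from the others of their group, and their deviations from the group means had r = 0.683 across genes. The bioC spike-in control read 8.89 on HCT116 control vehicle replicate 2 and 10.09 to 10.69 on the other arrays. The part of this departure in the differences was not tested. The actin 5′ minus 3′ difference, a sign of RNA quality, lay between -0.58 and -0.23 in Hke3, between -0.32 and -0.23 in Hkh-2, between -0.94 and -0.71 in HCT116 control doxycycline and between -0.85 and -0.48 in HCT116 control vehicle. Its part in the differences between groups was not tested. Of 10 colon epithelial markers, 9 had a mean of 6 or more in every group, among them EPCAM at 13.24 in Hke3, 13.16 in Hkh-2, 13.09 in HCT116 control doxycycline and 13.09 in HCT116 control vehicle, while CDH17 lay between 4.53 and 4.82. The 10 markers summed to 96.0 to 98.0 on the log2 scale in Hke3, 100.8 to 101.3 in Hkh-2, 96.1 to 96.3 in HCT116 control doxycycline and 96.1 to 96.6 in HCT116 control vehicle. Of the 9 tested, 2 were higher and 2 lower in Hke3, and 5 were higher in Hkh-2 with a median of 0.33 and a highest difference of 2.22. The part of these markers in the results for cell cycle genes was not tested. Of 10 fibroblast and blood cell markers, 5 or 6 reached 6, summing to 55.6 to 57.9 on the log2 scale in Hke3, 58.6 to 59.6 in Hkh-2, 56.7 to 58.5 in HCT116 control doxycycline and 56.5 to 57.8 in HCT116 control vehicle. The blood marker PTPRC stayed between 3.80 and 3.94, and COL3A1 had 6.73 in Hkh-2 against 4.49 in HCT116 control vehicle. In bulk RNA, fewer cells in a phase of the cycle and less RNA per cell cannot be told apart.

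Most G1/S genes differed from HCT116 control vehicle in Hke3, in both directions. The kinase CDK6 and the inhibitors CDKN2B, CDKN1B and CDKN2A were higher in both recombined lines, and MCM2, MCM3, MCM6, MCM7 and CDC6, which license replication origins, were lower in both. In Hke3, 7 of 27 G1/S genes were higher and 11 were lower. Of all genes tested, 47.8% were called in Hke3, with 23.2% higher and 24.6% lower. Their median difference was -0.16, against -0.04 over all genes. In Hkh-2, 7 of 27 were higher and 7 lower, where 36.0% of all genes were called, with 21.7% higher and 14.3% lower. The median was -0.07, against 0.02 over all genes. Arrays did not overlap for 19 of 27 genes between Hke3 and HCT116 control vehicle and for 16 of 27 between Hkh-2 and HCT116 control vehicle, beside 49.6% and 49.0% of all genes. The count of lower G1/S genes in Hkh-2 was 1 without Hkh-2 replicate 1, and 3 or 4 without another Hkh-2 array or without vehicle replicate 1 or 2. Without Hkh-2 replicate 1, 1448 of 12855 genes were lower in Hkh-2. Without Hkh-2 replicate 2 or 3, 1548 of 12849 and 1499 of 12865 genes were. Without vehicle replicate 1 or 2, 1540 of 12865 and 1886 of 12840 genes were.

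The G2/M genes likewise had calls in both directions. In Hke3, 4 of 16 were higher and 2 lower, and in Hkh-2, 2 were higher and 1 lower, against the same shares of all genes. Their medians were 0.03 in Hke3 and -0.05 in Hkh-2. Without Hke3 replicate 3, 5 G2/M genes were lower in Hke3 and 3 in Hkh-2, where 3904 and 2186 of 12867 genes were. The 1 lower G2/M gene in Hkh-2, CENPF, lost its call without Hke3 replicate 1, Hkh-2 replicate 1 or 2, HCT116 control vehicle replicate 1 or 3 or any HCT116 control doxycycline array, at adjusted p values up to 0.181, and CCNA2 was called without HCT116 control vehicle replicate 3. Of all 43 genes tested, 8 were higher in both lines (12.6% of all genes were) and 6 were lower in both (9.04% of all genes were). No gene was called in opposite directions in the 2 lines, and 16 were called in neither. Whether the share called differed between G1/S and G2/M genes was not tested.

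**Figure D1:**
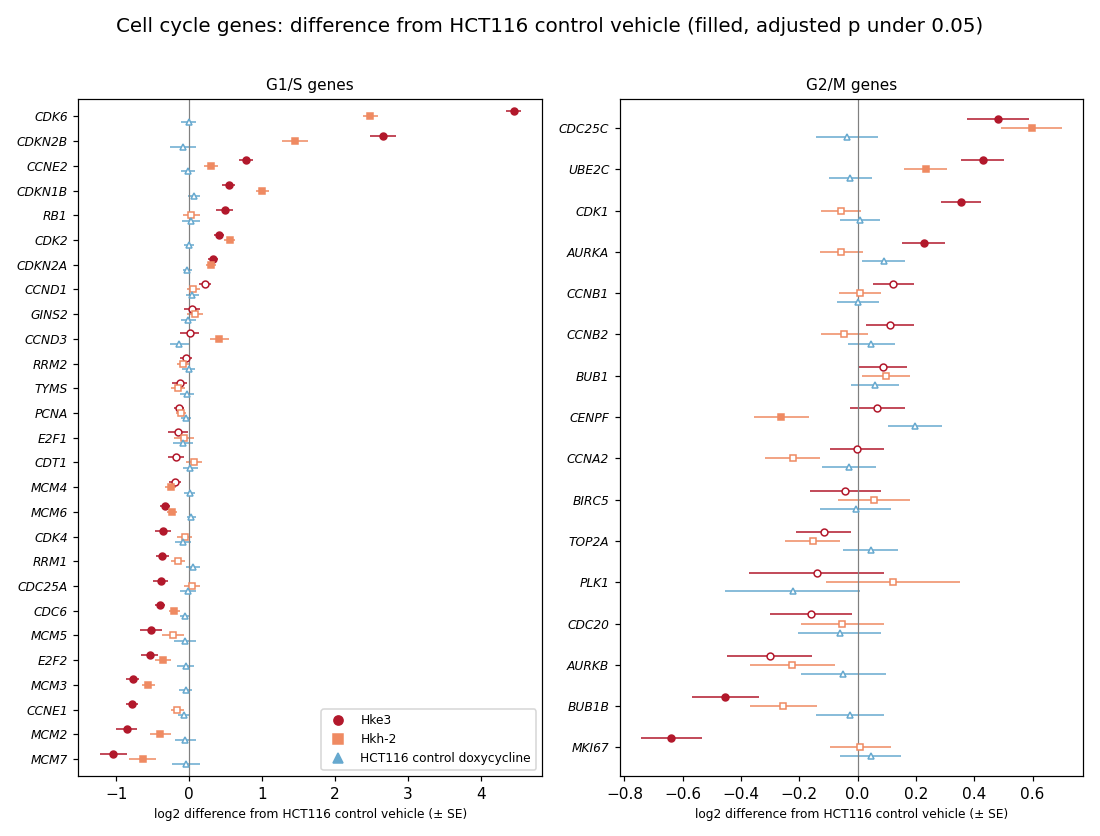
Log2 difference of each of the 43 genes tested from HCT116 control vehicle (± SE from limma, 3 arrays per group) in Hke3 (circles), Hkh-2 (squares) and HCT116 control doxycycline (triangles), with G1/S genes on the left, G2/M genes on the right and filled symbols for an adjusted p under 0.05. CDK6 and CDKN2B lie far to the right in both recombined lines, the MCM genes lie to the left, and all doxycycline values stay between -0.22 and 0.20.

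None of these genes passed the threshold with doxycycline. Of the 43 genes, 0 were called by limma between HCT116 control doxycycline and HCT116 control vehicle (0% of all genes), and 0 had an unadjusted p under 0.05, where 127 of 12852 genes did. The differences ran from -0.22 for PLK1 to 0.20 for CENPF, and no gene had arrays without overlap, against 4.37% of all genes. CDK6 differed by -0.01 ± 0.10 (SE, adjusted p = 1), MCM7 by -0.04 ± 0.19 (SE, adjusted p = 1) and CDKN1B by 0.06 ± 0.09 (SE, adjusted p = 1).

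Among the G1 cyclins and kinases, CDK6 (chr7:92604921-92836573, GRCh38.p14) had the largest difference of the 43 genes. CDK6 is the catalytic partner of the D-type cyclins. CDK6 had log2 values of 10.69, 10.62 and 10.75 in Hke3, 8.58, 8.91 and 8.67 in Hkh-2, 6.16, 6.11 and 6.42 in HCT116 control doxycycline, and 6.27, 6.15 and 6.30 in HCT116 control vehicle. Hke3 lay above Hkh-2 and Hkh-2 above the controls on every array, and both HCT116 control groups lay at the edge of background. CDK6 was 4.45 ± 0.10 (SE, adjusted p = 6.14e-12) higher in Hke3 and 2.48 ± 0.10 (SE, adjusted p = 7.87e-10) higher in Hkh-2, and with controls this near to background no linear fold is given for CDK6 or CDKN2B. Of its 6 further probe sets, 5 were called higher in Hke3, by 0.56 to 4.65, and 4 in Hkh-2, by 0.26 to 2.21. The exceptions were 1 probe set at 0.30 in Hke3 and -0.02 in Hkh-2, and another at 0.45 in Hkh-2. The Hkh-2 calls include 1 probe set at 0.54 with means below background, 3.70 in Hkh-2 and 3.17 in HCT116 control vehicle. That probe set was tested only through its Hke3 mean of 6.18. Of the further probe sets, only 1 had an HCT116 control vehicle mean above 6, at 6.23. On the others the vehicle means were 5.84, 4.65, 5.74, 3.17 and 4.83. Those probe sets were tested only through means of the recombined lines. The mean of the 7 probe sets was 2.82 higher in Hke3 and 1.09 higher in Hkh-2.

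CDK4, the close relative of CDK6, went the other way in Hke3. CDK4 had log2 values of 11.73, 11.74 and 12.15 in Hke3, 12.08, 12.19 and 12.23 in Hkh-2, 12.11, 12.17 and 12.16 in HCT116 control doxycycline, and 12.19, 12.36 and 12.14 in HCT116 control vehicle. It differed by -0.36 ± 0.11 (SE, adjusted p = 0.0142) in Hke3, with Hke3 replicate 3 inside the vehicle range, and without HCT116 control vehicle replicate 2 the difference was -0.29 at an adjusted p of 0.0547. The call was also lost without Hke3 replicate 1 or 2. In Hkh-2 its difference was -0.06 ± 0.11 (SE, adjusted p = 0.697).

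The D-type cyclins, the regulatory partners of CDK4 and CDK6, had 1 call, for CCND3 in Hkh-2. CCND1 had log2 values of 11.31, 11.24 and 11.31 in Hke3, 11.28, 11.11 and 10.99 in Hkh-2, 10.98, 11.13 and 11.22 in HCT116 control doxycycline, and 11.08, 11.12 and 11.00 in HCT116 control vehicle. Its difference was 0.22 ± 0.09 (SE, adjusted p = 0.0553) in Hke3 and 0.06 ± 0.09 (SE, adjusted p = 0.639) in Hkh-2, and its other probe set read -0.18 and 0.29, neither called. CCND2 stayed below 6 in every group on all 4 probe sets, with means of 4.74 in Hke3, 4.89 in Hkh-2, 4.90 in HCT116 control doxycycline and 4.96 in HCT116 control vehicle on the highest. CCND3 had log2 values of 9.75, 9.76 and 10.15 in Hke3, 10.31, 10.35 and 10.20 in Hkh-2, 9.74, 9.80 and 9.68 in HCT116 control doxycycline, and 9.76, 10.17 and 9.69 in HCT116 control vehicle. CCND3 was 0.41 ± 0.13 (SE, adjusted p = 0.0252) higher in Hkh-2, without overlap, and differed by 0.01 ± 0.13 (SE, adjusted p = 0.951) in Hke3. The Hkh-2 call was lost in 6 of 24 alternative settings.

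The E-type cyclins, which activate CDK2 at the G1/S transition, diverged in Hke3. CCNE1 had log2 values of 9.59, 9.45 and 9.71 in Hke3, 10.21, 10.26 and 10.15 in Hkh-2, 10.33, 10.30 and 10.25 in HCT116 control doxycycline, and 10.39, 10.46 and 10.24 in HCT116 control vehicle. CCNE1 differed by -0.78 ± 0.08 (SE, adjusted p = 7.27e-06) in Hke3 and all 3 Hke3 arrays lay below every other array, whereas in Hkh-2 the difference was -0.16 ± 0.08 (SE, adjusted p = 0.159). CCNE2 had log2 values of 10.49, 10.54 and 10.44 in Hke3, 9.93, 9.95 and 10.13 in Hkh-2, 9.72, 9.61 and 9.74 in HCT116 control doxycycline, and 9.89, 9.53 and 9.69 in HCT116 control vehicle. Hke3 was highest and Hkh-2 next. CCNE2 was 0.78 ± 0.09 (SE, adjusted p = 2.16e-05) higher in Hke3 and 0.30 ± 0.09 (SE, adjusted p = 0.0246) higher in Hkh-2. Its second probe set was 0.58 higher in Hke3 and -0.12 apart in Hkh-2, where only the first was called. The Hkh-2 call of CCNE2 held in 17 of 24 settings and was lost without Hkh-2 replicate 3 or HCT116 control vehicle replicate 2 or 3.

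CDK2, the kinase of the E-type cyclins, was higher in both lines. CDK2 had log2 values of 10.88, 10.93 and 11.06 in Hke3, 11.15, 11.03 and 11.11 in Hkh-2, 10.59, 10.53 and 10.52 in HCT116 control doxycycline, and 10.58, 10.53 and 10.52 in HCT116 control vehicle. The recombined lines lay above all control arrays, by 0.41 ± 0.07 (SE, adjusted p = 0.000383) in Hke3 and 0.56 ± 0.07 (SE, adjusted p = 4.24e-05) in Hkh-2, and a second probe set was 0.63 and 0.66 higher. CDC25A, the phosphatase that removes inhibitory phosphate from CDK2, was lower in Hke3. CDC25A had log2 values of 8.42, 8.38 and 8.70 in Hke3, 8.78, 8.997 and 9.01 in Hkh-2, 8.92, 8.95 and 8.75 in HCT116 control doxycycline, and 8.90, 9.01 and 8.75 in HCT116 control vehicle. Its difference was -0.39 ± 0.11 (SE, adjusted p = 0.00895) in Hke3 and 0.04 ± 0.11 (SE, adjusted p = 0.793) in Hkh-2, and all 3 of its probe sets were called lower in Hke3, by 0.39 to 0.82.

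**Figure D2:**
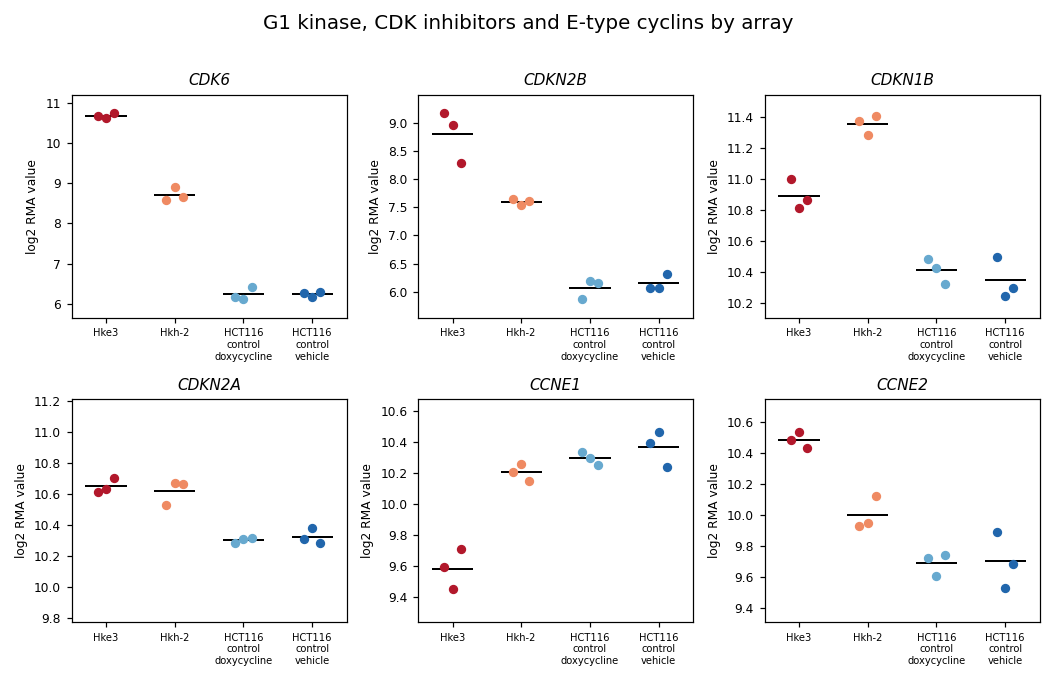
Log2 RMA values of CDK6, CDKN2B, CDKN1B, CDKN2A, CCNE1 and CCNE2 on each of 3 arrays per group (points, mean as a bar), with groups from left to right Hke3, Hkh-2, HCT116 control doxycycline and HCT116 control vehicle, each panel on its own axis. CDK6 and CDKN2B rank Hke3 above Hkh-2 above both control groups, CDKN1B ranks Hkh-2 above Hke3, and CCNE1 is lowest in Hke3.

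The CDK inhibitors CDKN2B, CDKN2A and CDKN1B were higher in both recombined lines. Of 2 other inhibitor genes counted with the further G1/S genes, CDKN1C differed by 0.42 ± 0.13 (SE, adjusted p = 0.0185) in Hke3 and 0.31 ± 0.13 (SE, adjusted p = 0.078) in Hkh-2, and CDKN2D was called in neither line, at 0.09 and -0.17. CDKN2B (chr9:22002903-22009313), which encodes the INK4B inhibitor of CDK4 and CDK6, had log2 values of 9.17, 8.96 and 8.28 in Hke3, 7.65, 7.53 and 7.61 in Hkh-2, 5.87, 6.18 and 6.16 in HCT116 control doxycycline, and 6.07, 6.06 and 6.31 in HCT116 control vehicle. Both lines lay above every control array, and the control levels were at the edge of background. CDKN2B was 2.66 ± 0.18 (SE, adjusted p = 9.86e-08) higher in Hke3 and 1.45 ± 0.18 (SE, adjusted p = 3.20e-05) higher in Hkh-2. Its second probe set was 1.18 and 0.61 higher, but only the Hke3 mean of 6.34 reached 6 there. Hkh-2 had 5.77 and HCT116 control vehicle 5.16 on that probe set, both below background. CDKN2A (chr9:21967752-21995324), the neighbour of CDKN2B, encodes INK4A and, in another reading frame, ARF, and its probe sets were not assigned to either transcript here. CDKN2A had log2 values of 10.62, 10.64 and 10.71 in Hke3, 10.53, 10.67 and 10.67 in Hkh-2, 10.29, 10.32 and 10.32 in HCT116 control doxycycline, and 10.32, 10.38 and 10.29 in HCT116 control vehicle. The lines did not overlap with either control group, at 0.32 ± 0.07 (SE, adjusted p = 0.00165) in Hke3 and 0.30 ± 0.07 (SE, adjusted p = 0.00391) in Hkh-2, and a second probe set was 0.57 and 0.23 higher.

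CDKN1B, which encodes the KIP1 inhibitor of cyclin E and CDK2, was highest in Hkh-2. CDKN1B had log2 values of 11.00, 10.81 and 10.86 in Hke3, 11.37, 11.28 and 11.40 in Hkh-2, 10.48, 10.42 and 10.32 in HCT116 control doxycycline, and 10.50, 10.24 and 10.30 in HCT116 control vehicle. No array of 1 line overlapped with the other line or with a control group. CDKN1B was 0.54 ± 0.09 (SE, adjusted p = 0.000214) higher in Hke3 and 1.01 ± 0.09 (SE, adjusted p = 1.15e-06) higher in Hkh-2, a 2.01-fold difference in Hkh-2. CDKN1B has 1 probe set.

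RB1, which encodes the retinoblastoma protein, was higher in Hke3. RB1 had log2 values of 10.78, 10.85 and 10.46 in Hke3, 10.20, 10.18 and 10.34 in Hkh-2, 10.20, 10.23 and 10.26 in HCT116 control doxycycline, and 10.28, 9.95 and 10.40 in HCT116 control vehicle. Hke3 replicate 3 was the lowest Hke3 array and just above the highest vehicle array. The difference was 0.49 ± 0.12 (SE, adjusted p = 0.00489) in Hke3 and 0.03 ± 0.12 (SE, adjusted p = 0.871) in Hkh-2, and a second probe set read -0.02 and -0.26. E2F2, an activating E2F factor, was lower in both lines. E2F2 had log2 values of 8.39, 8.55 and 8.75 in Hke3, 8.66, 8.79 and 8.77 in Hkh-2, 9.19, 9.12 and 8.85 in HCT116 control doxycycline, and 9.19, 9.18 and 8.93 in HCT116 control vehicle. Both lines lay below the control arrays, at -0.54 ± 0.11 (SE, adjusted p = 0.00185) in Hke3 and -0.36 ± 0.11 (SE, adjusted p = 0.0266) in Hkh-2, and 2 dimmer probe sets were not called. The Hkh-2 call held in 18 of 24 settings and was lost without Hkh-2 replicate 1 or 3, without HCT116 control vehicle replicate 1 or 2 and with the mean of all probe sets, where the difference was -0.18 at an adjusted p of 0.170. E2F1, the best known activating E2F, had log2 values of 8.69, 8.61 and 8.90 in Hke3, 8.69, 8.95 and 8.83 in Hkh-2, 8.81, 8.90 and 8.70 in HCT116 control doxycycline, and 8.80, 9.24 and 8.64 in HCT116 control vehicle. Its differences of -0.16 ± 0.14 (SE, adjusted p = 0.363) in Hke3 and -0.07 ± 0.14 (SE, adjusted p = 0.73) in Hkh-2 were within the spread of the vehicle arrays.

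Of the genes of origin licensing and replication, 6 of 10 were called lower in each line. MCM2 to MCM7 encode the 6 subunits of the helicase that CDC6 and CDT1 load onto origins, GINS2 is a subunit of the complex that activates it, and PCNA is the sliding clamp of the replicative polymerases. None was called higher, and 24.6% of all genes were called lower in Hke3 and 14.3% in Hkh-2. The medians were -0.37 in Hke3 and -0.23 in Hkh-2, and 5 genes, MCM2, MCM3, MCM6, MCM7 and CDC6, were called in both lines. The promoter stretches of these 5 genes (RefSeq, GRCh38.p14) are shown because these genes were called lower in both lines and each holds a match to an E2F motif. Capitals mark TTTCCCGC, TTTGGCGC, TTTCGCGC or TTTGCCGC on either strand, each stretch is given in the direction of its gene, and positions count from the annotated start.
MCM2 (chr3:127598363-127598430, + strand): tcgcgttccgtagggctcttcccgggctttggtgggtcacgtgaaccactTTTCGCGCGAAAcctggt
MCM3 (chr6:52284723-52284796, - strand): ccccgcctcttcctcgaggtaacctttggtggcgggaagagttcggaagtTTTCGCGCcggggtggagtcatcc
MCM6 (chr2:135876492-135876579, - strand): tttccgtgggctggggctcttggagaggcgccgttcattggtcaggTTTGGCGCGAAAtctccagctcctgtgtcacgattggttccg
MCM7 (chr7:100101378-100101456, - strand): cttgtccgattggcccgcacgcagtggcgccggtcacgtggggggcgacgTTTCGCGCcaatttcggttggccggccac
CDC6 (chr17:40287836-40287898, + strand): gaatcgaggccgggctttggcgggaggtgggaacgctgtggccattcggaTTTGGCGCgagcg

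The capitals lie at positions 3 to 14 in MCM2, -4 to 4 in MCM3, -90 to -79 in MCM6, -9 to -2 in MCM7 and 8 to 15 in CDC6. In MCM2 and MCM6 they are 2 matches on opposite strands that overlap. Windows of 300 bases, from 250 before the start to 50 after it, were available for 35 of the 44 genes. A match was found for 12 of 22 G1/S genes with a window (54.5%), for 1 of 13 G2/M genes (7.69%) and for 3.99% of all 27305 genes with a window. All 8 licensing and replication genes with a window had one. The other 4 genes were CDC25A, E2F1, E2F2 and TYMS. Of the 12 genes with a match, 0 were higher and 7 lower in Hke3, and 0 higher and 6 lower in Hkh-2, with medians of -0.36 and -0.18, where 23.2% of all genes were higher and 24.6% lower in Hke3, and 21.7% and 14.3% in Hkh-2. Of the 10 G1/S genes tested with a window and no match, 5 were higher and 3 lower in Hke3, and 5 higher and 0 lower in Hkh-2, with medians of 0.17 and 0.16. A match describes letters in a window and not binding of a factor, and no test was made between these groups of genes.

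MCM7 (chr7:100092728-100101397) had the lowest difference of all 43 genes. MCM7 had log2 values of 10.56, 10.62 and 11.44 in Hke3, 11.22, 11.37 and 11.22 in Hkh-2, 11.86, 11.88 and 11.85 in HCT116 control doxycycline, and 11.89, 12.16 and 11.68 in HCT116 control vehicle. Hke3 replicates 1 and 2 were lowest, Hke3 replicate 3 was close to Hkh-2, and both lines lay below all vehicle arrays. MCM7 differed by -1.04 ± 0.19 (SE, adjusted p = 0.000617) in Hke3, or 0.487 of the vehicle level, and -0.64 ± 0.19 (SE, adjusted p = 0.0183) in Hkh-2. Without Hke3 replicate 3 the Hke3 difference was -1.32. The Hkh-2 call held in 20 of 23 settings and was lost without Hkh-2 replicate 1 or 3 or HCT116 control vehicle replicate 2. A second probe set was 0.78 lower in Hke3 and called, and 0.43 lower in Hkh-2 and not called.

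MCM2 (chr3:127598411-127622436) followed the same order of groups. MCM2 had log2 values of 11.02, 11.02 and 11.62 in Hke3, 11.63, 11.74 and 11.69 in Hkh-2, 12.11, 12.04 and 11.94 in HCT116 control doxycycline, and 12.09, 12.24 and 11.91 in HCT116 control vehicle. Its differences were -0.86 ± 0.14 (SE, adjusted p = 0.000287) in Hke3 and -0.39 ± 0.14 (SE, adjusted p = 0.044) in Hkh-2. The Hkh-2 call held in 11 of 23 settings and its adjusted p reached 0.130 without HCT116 control vehicle replicate 2. MCM3 (chr6:52264015-52284742) had log2 values of 10.66, 10.73 and 10.97 in Hke3, 10.95, 11.04 and 11.01 in Hkh-2, 11.49, 11.53 and 11.52 in HCT116 control doxycycline, and 11.59, 11.68 and 11.41 in HCT116 control vehicle. The lines lay well below both control groups. MCM3 differed by -0.77 ± 0.09 (SE, adjusted p = 1.88e-05) in Hke3 and -0.56 ± 0.09 (SE, adjusted p = 0.000351) in Hkh-2, and the Hkh-2 call held in 23 of 24 settings.

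MCM6 (chr2:135839626-135876443) had log2 values of 12.42, 12.50 and 12.50 in Hke3, 12.51, 12.55 and 12.66 in Hkh-2, 12.85, 12.83 and 12.82 in HCT116 control doxycycline, and 12.85, 12.76 and 12.80 in HCT116 control vehicle. Hke3 was the lowest group and its arrays lay just below those of Hkh-2. MCM6 differed by -0.33 ± 0.07 (SE, adjusted p = 0.00132) in Hke3 and -0.23 ± 0.07 (SE, adjusted p = 0.0156) in Hkh-2, and a dimmer probe set was 0.96 and 0.80 lower. The Hkh-2 call of MCM6 held in 20 of 24 settings. MCM4 had log2 values of 10.83, 11.04 and 11.07 in Hke3, 10.86, 10.95 and 10.95 in Hkh-2, 11.25, 11.14 and 11.14 in HCT116 control doxycycline, and 11.15, 11.12 and 11.25 in HCT116 control vehicle. MCM4 differed by -0.19 ± 0.08 (SE, adjusted p = 0.0658) in Hke3, which was not called although the arrays did not overlap, and -0.25 ± 0.08 (SE, adjusted p = 0.0245) in Hkh-2. Of its 4 further probe sets, 3 were called lower in both lines, with differences of at least 0.44 in Hke3 and 0.34 in Hkh-2. MCM5 had log2 values of 10.62, 10.63 and 11.21 in Hke3, 11.03, 11.21 and 11.11 in Hkh-2, 11.26, 11.35 and 11.25 in HCT116 control doxycycline, and 11.30, 11.61 and 11.10 in HCT116 control vehicle. Hke3 replicate 3 lay inside the vehicle range, and MCM5 differed by -0.52 ± 0.15 (SE, adjusted p = 0.0135) in Hke3 and -0.23 ± 0.15 (SE, adjusted p = 0.278) in Hkh-2. The Hke3 call of MCM5 was lost without Hke3 replicate 1 or 2 or HCT116 control vehicle replicate 2.

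Over all 13 probe sets of MCM2 to MCM7, of which 5 are of MCM4, 11 were called lower in Hke3 and 9 in Hkh-2. In either line 0 were called higher. Of all probe sets, 44.7% and 35.5% were called, counted over both directions. The mean log2 value over the 6 genes was 11.02, 11.09 and 11.47 in Hke3, 11.37, 11.48 and 11.44 in Hkh-2, 11.80, 11.80 and 11.76 in HCT116 control doxycycline, and 11.81, 11.93 and 11.69 in HCT116 control vehicle. Hke3 replicate 3 and HCT116 control vehicle replicate 2, the arrays that stood apart, were the highest of their groups.

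CDC6 (chr17:40287879-40304657), a loader of the helicase, had log2 values of 10.16, 10.16 and 10.34 in Hke3, 10.44, 10.39 and 10.43 in Hkh-2, 10.60, 10.53 and 10.56 in HCT116 control doxycycline, and 10.70, 10.60 and 10.56 in HCT116 control vehicle. CDC6 differed by -0.40 ± 0.07 (SE, adjusted p = 0.000615) in Hke3 and -0.20 ± 0.07 (SE, adjusted p = 0.0443) in Hkh-2. Neither line overlapped with HCT116 control vehicle, but the Hkh-2 call held in only 7 of 24 settings, and the second probe set read -0.35 in Hke3, called, and -0.06 in Hkh-2, not called. CDT1, the other loader, had log2 values of 10.88, 10.93 and 11.16 in Hke3, 11.10, 11.19 and 11.42 in Hkh-2, 11.36, 11.10 and 11.11 in HCT116 control doxycycline, and 11.21, 11.20 and 11.10 in HCT116 control vehicle. Its differences were -0.18 ± 0.11 (SE, adjusted p = 0.182) in Hke3 and 0.07 ± 0.11 (SE, adjusted p = 0.663) in Hkh-2. GINS2 had log2 values of 11.12, 11.07 and 11.40 in Hke3, 11.09, 11.21 and 11.40 in Hkh-2, 11.24, 11.18 and 11.04 in HCT116 control doxycycline, and 11.29, 11.06 and 11.12 in HCT116 control vehicle. GINS2 differed by 0.04 ± 0.11 (SE, adjusted p = 0.793) in Hke3 and 0.08 ± 0.11 (SE, adjusted p = 0.619) in Hkh-2, with overlapping arrays in both. PCNA had log2 values of 13.08, 13.17 and 13.15 in Hke3, 13.18, 13.09 and 13.21 in Hkh-2, 13.19, 13.21 and 13.29 in HCT116 control doxycycline, and 13.25, 13.21 and 13.35 in HCT116 control vehicle. PCNA differed by -0.14 ± 0.07 (SE, adjusted p = 0.124) in Hke3 and -0.11 ± 0.07 (SE, adjusted p = 0.251) in Hkh-2.

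**Figure D3:**
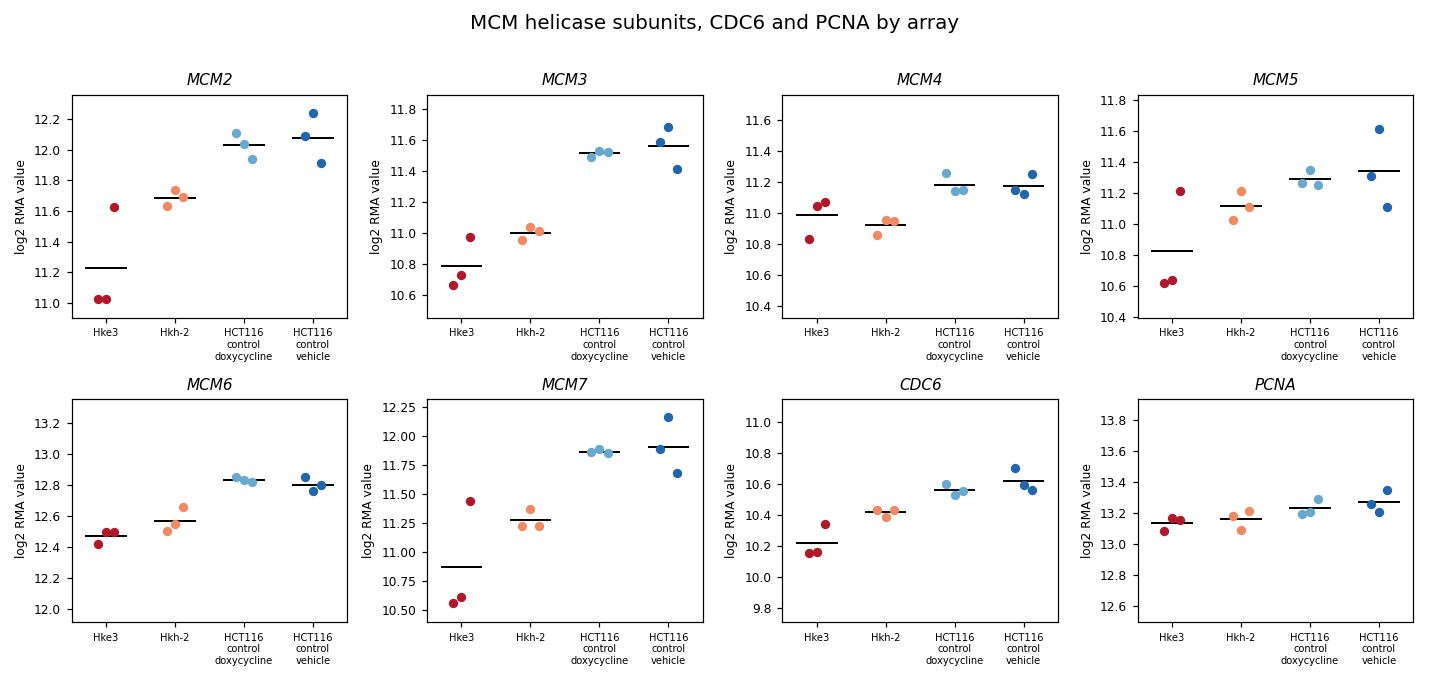
Log2 RMA values of MCM2 to MCM7, CDC6 and PCNA on each of 3 arrays per group (points, mean as a bar), with groups from left to right Hke3, Hkh-2, HCT116 control doxycycline and HCT116 control vehicle, each panel on its own axis. In MCM2, MCM3, MCM6, MCM7 and CDC6 every array of Hke3 and Hkh-2 lies below every vehicle array, and Hke3 replicate 3 lies above the other 2 Hke3 arrays in MCM2, MCM5 and MCM7.

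On the probe sets that stand for them, the nucleotide synthesis genes showed 1 call with all arrays in the fit. RRM1 encodes the large subunit of ribonucleotide reductase, and had log2 values of 11.42, 11.43 and 11.74 in Hke3, 11.70, 11.69 and 11.84 in Hkh-2, 12.01, 11.96 and 11.87 in HCT116 control doxycycline, and 11.999, 11.87 and 11.81 in HCT116 control vehicle. RRM1 differed by -0.36 ± 0.10 (SE, adjusted p = 0.00702) in Hke3 and -0.15 ± 0.10 (SE, adjusted p = 0.249) in Hkh-2, while a second probe set was called lower in both lines, by 0.69 and 0.72. RRM2, the small subunit, had log2 values of 12.98, 12.92 and 13.25 in Hke3, 12.99, 12.96 and 13.06 in Hkh-2, 13.13, 13.06 and 13.05 in HCT116 control doxycycline, and 13.11, 13.09 and 13.07 in HCT116 control vehicle. It differed by -0.04 ± 0.08 (SE, adjusted p = 0.701) in Hke3 and -0.09 ± 0.08 (SE, adjusted p = 0.453) in Hkh-2. TYMS, the thymidylate synthase, had log2 values of 13.04, 13.10 and 13.44 in Hke3, 13.10, 13.17 and 13.25 in Hkh-2, 13.28, 13.32 and 13.27 in HCT116 control doxycycline, and 13.29, 13.42 and 13.26 in HCT116 control vehicle. TYMS differed by -0.13 ± 0.10 (SE, adjusted p = 0.291) in Hke3 and -0.15 ± 0.10 (SE, adjusted p = 0.259) in Hkh-2, and its arrays did not overlap between Hkh-2 and HCT116 control vehicle. Without Hke3 replicate 3 the Hke3 difference of TYMS was -0.25 at an adjusted p of 0.0131.

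Among the mitotic cyclins and their kinase, CDC25C was higher in both lines and CDK1 in Hke3 alone passed the threshold. CDC25C (chr5:138285265-138338355) encodes a phosphatase that activates CDK1. CDC25C had log2 values of 8.38, 8.45 and 8.29 in Hke3, 8.37, 8.57 and 8.53 in Hkh-2, 7.99, 7.79 and 7.79 in HCT116 control doxycycline, and 8.13, 7.82 and 7.72 in HCT116 control vehicle. Both lines lay above all control arrays, by 0.48 ± 0.11 (SE, adjusted p = 0.00231) in Hke3 and 0.60 ± 0.11 (SE, adjusted p = 0.000656) in Hkh-2, and a second probe set was 0.59 and 0.39 higher. CDK1 (chr10:60778331-60794852), the kinase that drives entry into mitosis, had log2 values of 12.42, 12.40 and 12.33 in Hke3, 11.88, 11.97 and 12.06 in Hkh-2, 12.09, 12.01 and 12.02 in HCT116 control doxycycline, and 12.08, 11.999 and 12.01 in HCT116 control vehicle. Hke3 lay above all other arrays. CDK1 was 0.35 ± 0.07 (SE, adjusted p = 0.0011) higher in Hke3, with a difference of -0.06 ± 0.07 (SE, adjusted p = 0.563) in Hkh-2, and 2 further probe sets were each 0.53 higher in Hke3.

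The promoter stretches of CDC25C, CDK1 and MKI67, 3 of the G2/M genes called that had a window, are shown for the CHR and CCAAT motifs typical of G2/M genes. Capitals mark TTTGAA or TTCGAA, the CHR letters, and CCAAT, each on either strand, in the 100 bases before an annotated start (RefSeq, GRCh38.p14). CDC25C and CDK1 have more than 1 annotated start. For them the start shown is the one with the nearest CHR match in those 100 bases. In both genes this start lies inside the gene span given above and is not the outermost one.
CDC25C (chr5:138331805-138331904, - strand): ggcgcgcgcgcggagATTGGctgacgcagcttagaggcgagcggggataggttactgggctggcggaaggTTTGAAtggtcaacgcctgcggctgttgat
CDK1 (chr10:60778378-60778477, + strand): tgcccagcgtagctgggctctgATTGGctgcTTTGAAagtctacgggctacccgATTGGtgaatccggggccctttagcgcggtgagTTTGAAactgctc
MKI67 (chr10:128126424-128126523, - strand): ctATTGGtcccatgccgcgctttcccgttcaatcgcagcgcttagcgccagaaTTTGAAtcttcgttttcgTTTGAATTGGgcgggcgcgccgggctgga

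In MKI67 a CHR and a CCAAT match overlap. BUB1B and CENPF, the other called G2/M genes with a window, are not shown. BUB1B had CHR letters at -23 to -18 and no CCAAT match, and CENPF had CHR letters only past the start, at 41 to 46. CHR letters were found for 10 of 13 G2/M genes with a window (76.9%), for 2 of 22 G1/S genes (9.09%) and for 19.5% of all genes with a window. CCAAT was found for 12 of 13 G2/M genes (92.3%), 12 of 22 G1/S genes and 39.7% of all genes. Of the 10 G2/M genes with CHR letters, 2 were higher and 2 lower in Hke3, and 1 was higher and 1 lower in Hkh-2, with medians of -0.02 and -0.05, beside the same shares of all genes (23.2%, 24.6%, 21.7% and 14.3%). These genes had differences in both directions in each line.

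The cyclins of G2 were not called on the probe sets that stand for them. CCNA2, cyclin A2, had log2 values of 10.66, 10.64 and 10.86 in Hke3, 10.51, 10.47 and 10.51 in Hkh-2, 10.82, 10.73 and 10.52 in HCT116 control doxycycline, and 10.76, 10.81 and 10.59 in HCT116 control vehicle. It differed by 0.00 ± 0.09 (SE, adjusted p = 0.985) in Hke3 and -0.22 ± 0.09 (SE, adjusted p = 0.0803) in Hkh-2, and a second probe set was 0.28 higher in Hke3 and called. CCNB1, a B-type cyclin that binds CDK1, had log2 values of 12.39, 12.49 and 12.62 in Hke3, 12.36, 12.37 and 12.43 in Hkh-2, 12.39, 12.34 and 12.40 in HCT116 control doxycycline, and 12.42, 12.34 and 12.37 in HCT116 control vehicle. CCNB1 differed by 0.12 ± 0.07 (SE, adjusted p = 0.175) in Hke3 and 0.01 ± 0.07 (SE, adjusted p = 0.939) in Hkh-2. CCNB2, the second B-type cyclin, ranged from 11.34 to 11.72 over the 12 arrays and differed by 0.11 ± 0.08 (SE, adjusted p = 0.277) in Hke3 and -0.05 ± 0.08 (SE, adjusted p = 0.702) in Hkh-2.

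UBE2C, the ubiquitin-conjugating enzyme of the anaphase-promoting complex, was the other G2/M gene higher in both lines. UBE2C had log2 values of 11.77, 11.74 and 11.80 in Hke3, 11.47, 11.63 and 11.64 in Hkh-2, 11.27, 11.36 and 11.33 in HCT116 control doxycycline, and 11.34, 11.43 and 11.26 in HCT116 control vehicle. No array of either line overlapped with the controls. UBE2C was 0.43 ± 0.07 (SE, adjusted p = 0.000402) higher in Hke3 and 0.23 ± 0.07 (SE, adjusted p = 0.0246) higher in Hkh-2. The Hkh-2 call held in 18 of 24 settings and was lost without Hkh-2 replicate 2 or 3 and without HCT116 control vehicle replicate 1 or 3. AURKA, a kinase of the spindle poles, had log2 values of 11.86, 11.84 and 11.92 in Hke3, 11.56, 11.59 and 11.62 in Hkh-2, 11.83, 11.74 and 11.64 in HCT116 control doxycycline, and 11.72, 11.55 and 11.68 in HCT116 control vehicle. AURKA was 0.23 ± 0.07 (SE, adjusted p = 0.0222) higher in Hke3 and differed by -0.06 ± 0.07 (SE, adjusted p = 0.596) in Hkh-2. The Hke3 call held in 18 of 24 settings, and neither of its 2 further probe sets was called.

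BUB1B, a spindle checkpoint kinase-like protein, was lower in Hke3. BUB1B had log2 values of 11.08, 11.06 and 11.54 in Hke3, 11.46, 11.51 and 11.32 in Hkh-2, 11.67, 11.60 and 11.70 in HCT116 control doxycycline, and 11.64, 11.80 and 11.61 in HCT116 control vehicle. Both lines lay below all vehicle arrays, at -0.45 ± 0.12 (SE, adjusted p = 0.00618) in Hke3 and -0.25 ± 0.12 (SE, adjusted p = 0.107) in Hkh-2. Without Hke3 replicate 3 the Hkh-2 difference passed the threshold as well, at an adjusted p of 0.0156. PLK1, the polo-like kinase of mitosis, had log2 values of 9.65, 9.77 and 10.75 in Hke3, 10.13, 10.36 and 10.46 in Hkh-2, 9.96, 10.05 and 9.91 in HCT116 control doxycycline, and 10.07, 10.52 and 10.00 in HCT116 control vehicle. Hke3 replicate 3 was the highest of all 12 arrays, while Hke3 replicates 1 and 2 were the lowest. PLK1 differed by -0.14 ± 0.23 (SE, adjusted p = 0.642) in Hke3 and 0.12 ± 0.23 (SE, adjusted p = 0.722) in Hkh-2, and without Hke3 replicate 3 its Hke3 difference was -0.49 at an adjusted p of 0.0118.

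AURKB, the kinase of the chromosomal passenger complex, had log2 values of 9.42, 9.52 and 10.10 in Hke3, 9.73, 9.80 and 9.75 in Hkh-2, 9.98, 9.95 and 9.87 in HCT116 control doxycycline, and 9.95, 10.17 and 9.83 in HCT116 control vehicle. AURKB differed by -0.30 ± 0.15 (SE, adjusted p = 0.105) in Hke3 and -0.22 ± 0.15 (SE, adjusted p = 0.256) in Hkh-2, and without Hke3 replicate 3 its Hke3 difference was -0.51 at an adjusted p of 0.00066. CDC20, an activator of the anaphase-promoting complex, had log2 values of 11.58, 11.55 and 12.20 in Hke3, 11.80, 11.94 and 11.93 in Hkh-2, 11.91, 11.87 and 11.85 in HCT116 control doxycycline, and 11.91, 12.09 and 11.82 in HCT116 control vehicle. Again Hke3 replicate 3 was the highest array. CDC20 differed by -0.16 ± 0.14 (SE, adjusted p = 0.367) in Hke3 and -0.05 ± 0.14 (SE, adjusted p = 0.806) in Hkh-2, and without Hke3 replicate 3 the Hke3 difference was -0.37 at an adjusted p of 0.00302. BUB1, a checkpoint kinase, ranged from 10.34 to 10.67 over the arrays and differed by 0.09 ± 0.08 (SE, adjusted p = 0.398) in Hke3 and 0.10 ± 0.08 (SE, adjusted p = 0.395) in Hkh-2, but a further probe set was called lower in both, by 0.48 and 0.73. BIRC5, survivin, differed by -0.04 ± 0.12 (SE, adjusted p = 0.796) in Hke3 and 0.06 ± 0.12 (SE, adjusted p = 0.76) in Hkh-2, and its other probe sets disagreed. One was called higher in both lines, by 0.29 in Hke3 and 0.33 in Hkh-2, and another was 0.57 lower in Hkh-2 and -0.13 apart in Hke3, not called.

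The antigen Ki-67, encoded by MKI67 and used as a marker of proliferating cells, depended on the probe set. MKI67 had log2 values of 10.36, 10.25 and 10.66 in Hke3, 11.00, 11.24 and 10.97 in Hkh-2, 11.03, 11.13 and 11.16 in HCT116 control doxycycline, and 11.10, 11.03 and 11.06 in HCT116 control vehicle. Hke3 lay below all other arrays, at -0.64 ± 0.10 (SE, adjusted p = 0.000282), and Hkh-2 differed by 0.01 ± 0.10 (SE, adjusted p = 0.955). A second probe set was 0.38 lower in Hke3, whereas the third was higher in both lines, by 0.46 and 0.42, and the fourth was not called. With the mean of the 4 probe sets the Hke3 difference was -0.18 at an adjusted p of 0.0976. CENPF, a kinetochore protein, had log2 values of 10.40, 10.26 and 10.40 in Hke3, 9.87, 10.07 and 10.14 in Hkh-2, 10.47, 10.56 and 10.43 in HCT116 control doxycycline, and 10.44, 10.15 and 10.27 in HCT116 control vehicle. CENPF differed by -0.26 ± 0.09 (SE, adjusted p = 0.0441) in Hkh-2 and 0.07 ± 0.09 (SE, adjusted p = 0.573) in Hke3, and the Hkh-2 call held in 9 of 23 settings. A second CENPF probe set was called higher in Hke3, by 0.36, and read 0.03 in Hkh-2. TOP2A, topoisomerase II alpha, differed by -0.12 ± 0.09 (SE, adjusted p = 0.321) in Hke3 and -0.15 ± 0.09 (SE, adjusted p = 0.223) in Hkh-2, although a further probe set was 1.14 lower in Hkh-2 and called.

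**Figure D4:**
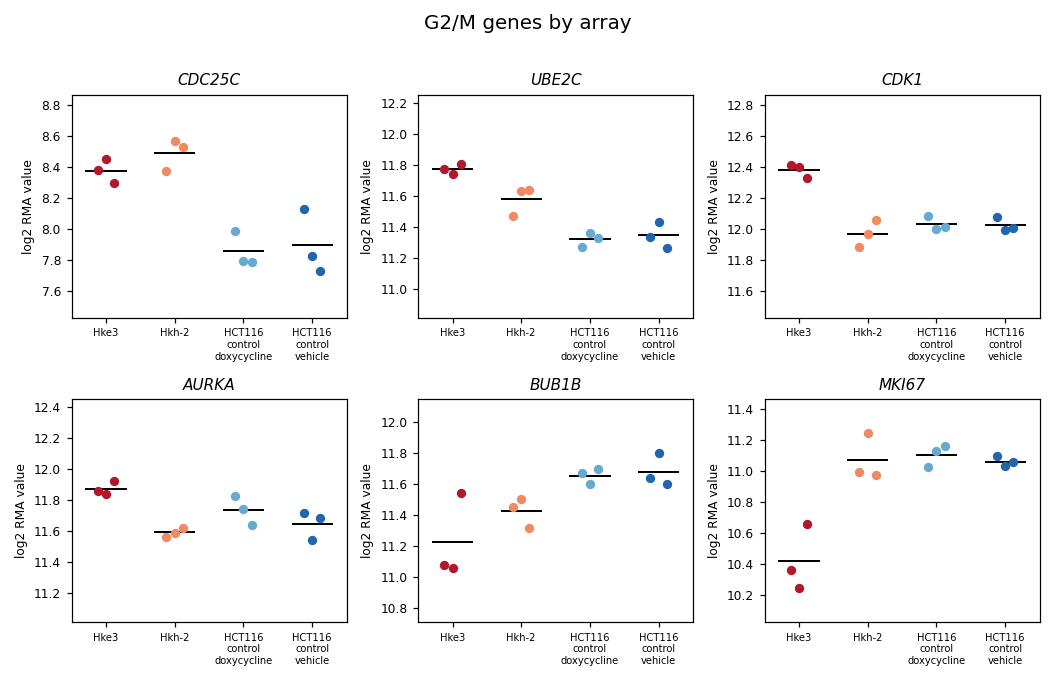
Log2 RMA values of CDC25C, UBE2C, CDK1, AURKA, BUB1B and MKI67 on each of 3 arrays per group (points, mean as a bar), with groups from left to right Hke3, Hkh-2, HCT116 control doxycycline and HCT116 control vehicle, each panel on its own axis. CDC25C and UBE2C are above the controls in both lines, CDK1 is above them in Hke3, and MKI67 on this probe set is below them in Hke3.

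The 2 recombined lines also differed from each other. Between Hke3 and Hkh-2, 4 of 27 G1/S genes were higher and 7 lower in Hke3, and 3 of 16 G2/M genes were higher and 1 lower. Of all genes, 39.8% were called in this comparison, with 16.3% higher and 23.5% lower. Arrays of the lines did not overlap for 11 of 27 G1/S genes and 6 of 16 G2/M genes, beside 48.0% of all genes. CDK6 was 1.97 ± 0.10 (SE, adjusted p = 1.13e-08) higher in Hke3 than in Hkh-2 and CDKN2B was 1.21 ± 0.18 (SE, adjusted p = 0.000168) higher. CCNE1 differed by -0.62 ± 0.08 (SE, adjusted p = 7.64e-05) and CDKN1B -0.46 ± 0.09 (SE, adjusted p = 0.000969). CDK1 was 0.41 ± 0.07 (SE, adjusted p = 0.000489) higher in Hke3, and MKI67 differed by -0.65 ± 0.10 (SE, adjusted p = 0.000345). Of the 6 MCM genes, only MCM2 was called, at -0.46 ± 0.14 (SE, adjusted p = 0.0192), and without Hke3 replicate 3 MCM3, MCM5 and MCM7 were called as well, at -0.30, -0.49 and -0.69. Of the 13 probe sets of MCM2 to MCM7, 1 was called, lower in Hke3, where 35.9% of all probe sets were called.

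Further genes of the 2 phases were counted for comparison. Of 64 other G1/S genes, 62 were tested. In Hke3, 11 were higher and 18 lower, and in Hkh-2, 7 were higher and 11 lower, with medians of -0.07 and -0.04. The share called, 46.8% in Hke3 and 29% in Hkh-2, stood beside 47.8% and 36.0% of all genes. POLE, the catalytic subunit of the leading-strand polymerase, differed by -0.96 ± 0.15 (SE, adjusted p = 0.000211) in Hke3, POLA1 of the primase complex differed by -0.58 ± 0.10 (SE, adjusted p = 0.000343) in Hke3 and -0.44 ± 0.10 (SE, adjusted p = 0.00298) in Hkh-2, and the ligase LIG1 differed by -0.57 ± 0.13 (SE, adjusted p = 0.00355) and -0.47 ± 0.13 (SE, adjusted p = 0.0143). The atypical repressor E2F7 was higher in both, at 0.94 ± 0.08 (SE, adjusted p = 9.22e-07) in Hke3 and 0.59 ± 0.08 (SE, adjusted p = 7.30e-05) in Hkh-2, as was the GINS subunit GINS4, at 0.52 ± 0.17 (SE, adjusted p = 0.0217) and 0.73 ± 0.17 (SE, adjusted p = 0.00442). In Hkh-2 the largest differences were those of E2F8, 0.96 ± 0.14 (SE, adjusted p = 0.000155) higher, and MCM8, 0.89 ± 0.09 (SE, adjusted p = 7.26e-06) higher. Neither was called in Hke3. Opposite calls in the 2 lines were made for E2F5 and ORC2.

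Of 75 other G2/M genes, 74 were tested, and 26 were higher and 13 lower in Hke3, against 12 higher and 8 lower in Hkh-2, with medians of 0.10 and -0.02. The share called was 52.7% in Hke3 and 27% in Hkh-2, beside 47.8% and 36.0% of all genes. The phosphatase gene CDC25B, a relative of CDC25A and CDC25C, differed by -0.90 ± 0.12 (SE, adjusted p = 5.51e-05) in Hke3 and -1.28 ± 0.12 (SE, adjusted p = 2.74e-06) in Hkh-2, and the spindle assembly factor TPX2 differed by -0.75 ± 0.08 (SE, adjusted p = 8.28e-06) and -0.86 ± 0.08 (SE, adjusted p = 2.84e-06). The centromere gene CENPI was higher in both, at 1.10 ± 0.12 (SE, adjusted p = 1.04e-05) in Hke3 and 0.89 ± 0.12 (SE, adjusted p = 8.20e-05) in Hkh-2. CENPK was also called higher in both lines, and was 1.19 ± 0.10 (SE, adjusted p = 6.44e-07) higher in Hke3. The condensin gene SMC2 was 0.86 ± 0.08 (SE, adjusted p = 2.40e-06) higher in Hkh-2. FOXM1 and MYBL2, which encode activators of G2/M genes, were called in neither line.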

How the data were processed

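RNA of HCT116, Hke3 and Hkh-2 was measured on GeneChip Human Genome U133 Plus 2.0 arrays. The deposited values are on a log2 scale, and the authors obtained them with RMA according to the processing notes. The chip definition and the arrays normalized together are not given in the sources used here. The recombined gene itself is not reported here.

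Of 54675 probe sets, 41097 had a single gene symbol and 41043 of these were matched by gene ID to RefSeq (GRCh38.p14). For each gene the probe set with the highest mean was used, and genes with a group mean of 6 or more were kept. The 12 arrays were fitted together in limma 3.58.1 under R 4.3.3 with lmFit, contrasts and eBayes, with Benjamini-Hochberg adjustment over the 12852 genes kept. The contrasts were Hke3, Hkh-2 and doxycycline minus vehicle, and Hke3 minus Hkh-2. The number of arrays limits the precision. The procedure was tested on simulated data in which noise was independent between arrays. Far fewer genes changed there than were called here, and they changed in Hke3 alone. The simulation therefore does not show how the procedure performs where arrays share deviations.

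The 44 genes and the further lists were chosen with earlier results of these data known. Per-array values were given for the D-type cyclins, the INK4 inhibitors, genes called in both lines and those with the largest differences of their subgroup, and for further genes of the 44. Up to 4 genes with the largest differences were eligible from each further list, contrast and direction, and E2F5, ORC2, FOXM1 and MYBL2 were named after their values were seen. Deviations of same-numbered vehicle and doxycycline arrays had r = 0.228, 0.212 and 0.453 across genes. Those of Hkh-2 and doxycycline arrays had 0.076, 0.134 and 0.104, and those of Hkh-2 and vehicle arrays -0.046, 0.422 and 0.337. Whether replicate numbers pair arrays was not tested. Alternatives were other probe set summaries, filters, normalizations, fits, the replicate block, pooled controls, a size threshold and leaving out arrays. The block on the vehicle and doxycycline arrays alone was added after seeing the data.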

Additional observations from a re-analysis of the deposited data

Results flagged for a closer look

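For 15 of the 43 genes (34.9%) the test of Hke3 against Hkh-2 itself passed an adjusted p of 0.05 from limma. This share was below the 39.8% of all genes called in this comparison. The differences of these 15 genes from HCT116 control vehicle were unequal in the 2 lines. Higher in Hke3 than in Hkh-2 were CDK6 by 1.97 on the log2 scale, CDKN2B by 1.21, CCNE2 by 0.48, RB1 by 0.46, CDK1 by 0.41, CENPF by 0.33 and AURKA by 0.28. Lower in Hke3 than in Hkh-2 were MKI67 at -0.65, CCNE1 at -0.62, CDKN1B at -0.46, MCM2 at -0.46, CDC25A at -0.43, CCND3 at -0.40, CDK4 at -0.30 and CDC6 at -0.20. CDK6, CDKN2B, CCNE2 and CDKN1B were higher in both lines and MCM2 and CDC6 lower in both, so for these genes the lines differed in size. The calls of CDK4 and CDC6 between the lines were lost when only the compared groups were fitted, with cyclic loess, with no filter on low values, without Hke3 replicate 1 or 2 and without any 1 Hkh-2 or HCT116 control doxycycline array, and also without HCT116 control vehicle replicate 1 for CDK4 and replicate 3 for CDC6. Those of MCM2 and CCND3 were lost without Hke3 replicate 1 or 2 or Hkh-2 replicate 2, that of CCND3 also without Hkh-2 replicate 1, with cyclic loess and with the mean of all probe sets, and that of CENPF without Hkh-2 replicate 1.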

How the results depend on the processing

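No difference that was called changed its sign, and across all settings 3827 values of single genes kept their side of the threshold, 159 lost a call and 63 gained one. The 3827 include doxycycline values, which had no call to lose, and genes that were not called. They are therefore no measure of how stable the calls were. In Hkh-2 the call held in 7 of 24 settings for CDC6, 9 of 23 for CENPF and 11 of 23 for MCM2. CDK6 and CDKN2B were called in both lines in all 24 settings, as were CCNE1, CCNE2 and MCM3 in Hke3, and CDKN1B in Hkh-2. The causes of the changes were not tested. With a 1.5-fold change required as well, the calls for Hke3 were 3 higher and 4 lower G1/S genes and 0 higher and 1 lower G2/M genes, for Hkh-2 3, 1, 1 and 0, and for Hke3 minus Hkh-2 2, 1, 0 and 1. Of all 12852 genes, 1324 were higher and 879 lower in Hke3 under this rule, and 1087 and 561 in Hkh-2. For Hke3 minus Hkh-2 the counts were 850 and 978. Without the _s_at and _x_at probe sets, G2/M calls were 2 higher and 1 lower in Hke3 and 1 higher and 0 lower in Hkh-2, 4 G1/S genes were lower in Hkh-2, and 0 G2/M genes were lower in Hke3 than in Hkh-2. Of all 9888 genes tested there, 2293 were higher and 2285 lower in Hke3, and 2017 and 1435 in Hkh-2. Lower in Hke3 than in Hkh-2 were 2053. The mean of all probe sets gave 1 lower G2/M gene in Hke3, 4 higher G1/S genes in Hkh-2 and 7 higher G2/M genes in Hke3 than in Hkh-2. Over all genes the same calls numbered 3040, 2217 and 1993 of 11393. Cyclic loess gave 2 lower G2/M genes in Hkh-2, and 4 lower G1/S and 5 higher G2/M genes in Hke3 against Hkh-2. Over all genes these calls numbered 2005, 2528 and 2495 of 12854. The lower G2/M gene of Hkh-2, CENPF, was not called with no filter, with array medians subtracted or with the compared groups alone (0 genes each), and the pooled controls gave 2. The compared groups alone gave 1 higher G2/M gene in Hkh-2. With CDC25A counted as G2/M, 2 G2/M genes were lower in Hke3 than in Hkh-2.

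Leaving out Hke3 replicate 3 and HCT116 control vehicle replicate 2 together gave 5 lower G2/M genes in Hke3, 2 in Hkh-2, and 14 lower G1/S and 5 lower G2/M genes in Hke3 against Hkh-2. Over all 12854 genes, 3823, 2481 and 4394 were lower in the 3 comparisons. With 1 array left out at a time, the G1/S calls were 7 to 8 higher and 9 to 13 lower in Hke3, 5 to 7 higher and 1 to 7 lower in Hkh-2, and 4 higher and 3 to 13 lower in Hke3 against Hkh-2. The G2/M calls were 3 to 4 higher and 2 to 5 lower in Hke3, 1 to 2 higher and 0 to 3 lower in Hkh-2, and 2 to 4 higher and 1 to 5 lower in Hke3 against Hkh-2. In these settings 12840 to 12900 genes were tested. Over all of them, 2599 to 3220 were higher and 2378 to 3904 lower in Hke3. In Hkh-2, 2207 to 3235 were higher and 1448 to 2186 lower. In Hke3 against Hkh-2, 1694 to 2547 were higher and 2163 to 3867 lower. Leaving out Hke3 replicate 3 gave the 5 lower G2/M genes in Hke3, the 3 in Hkh-2 and the 13 lower G1/S genes in Hke3 against Hkh-2. Over all 12867 genes, 3904, 2186 and 3867 were lower in these comparisons. The lower G1/S genes of Hkh-2 were 1 without Hkh-2 replicate 1, 4 without replicate 2, 3 without replicate 3, and 3 without HCT116 control vehicle replicate 1 or 2. Over all genes, in the same order, 1448, 1548, 1499, 1540 and 1886 were lower. The lower G1/S genes of Hke3 against Hkh-2 were 3 without Hke3 replicate 1 or 2, 4 without Hkh-2 replicate 1 and 3 without Hkh-2 replicate 2. Over all genes, in the same order, 2259, 2163, 2530 and 2223 were lower.

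With the replicate block, 0 G2/M genes were lower in Hkh-2, and MCM2, CDC6 and CENPF in Hkh-2 and CDC6 in Hke3 against Hkh-2 lost their calls. Doxycycline gave 0 calls under every setting, the block included. Of the 12 arrays, 6 correlated best with an array of their own number.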
